A study of Mus musculus with 12 samples.

Results

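The genes described here are Trp53, which encodes the transcription factor p53, and genes that p53 is known to control. Members were chosen by Ensembl identifier from a list of 10, and 5 of them have a row among the 10481 genes of the count table. These 5 are Trp53 (ENSMUSG00000059552), Mdm2 (ENSMUSG00000020184), Cdkn1a (ENSMUSG00000023067), Bax (ENSMUSG00000003873) and Trp53inp1 (ENSMUSG00000028211). Mdm4, Ccng1, Phlda3, Perp and Zmat3 were listed too and are not analysed here. The rule uses no measured value.

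Ribosome footprints, the mRNA fragments that ribosomes shield from RNase, were counted in brain and spinal cord of mouse embryos at E14.5. Both genotypes carried SMN2tg/0, a human SMN2 transgene. SMA embryos of the Taiwanese model were Smn-/-; SMN2tg/0, and control embryos were Smn+/-; SMN2tg/0, so that the controls also lacked 1 Smn allele. There were 3 libraries for each genotype in each tissue, 12 in all, made from whole tissue and from the 80S fraction, from 3 embryos of each genotype per the study. The labels do not tie a brain and a spinal cord library to the same embryo, nor embryos to litters. P-values therefore measure the spread between these libraries.

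In cells without damage, p53 protein is held low because Mdm2, an E3 ubiquitin ligase, marks it for degradation. DNA damage, faulty splicing and other stresses break that hold, and p53 then switches on genes that stop the cell cycle, such as Cdkn1a, genes that start apoptosis, such as Bax, and Mdm2 itself, which closes a feedback loop. Stabilised p53 has been tied to the death of motor neurons in SMA mice, which is the reason to look at its targets in this model. Footprint counts reflect the amount of Trp53 mRNA as well as its translation, and not the stability of p53 protein. Levels of mRNA were not among the values used here, so amount and translation cannot be told apart for any gene. The levels of p53 target genes are the usual readout of p53 activity.

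The promoters of the members are shown because p53 acts on its targets through DNA. It binds a pair of p53 half-sites of 10 bases each. RefSeq promoters on GRCm38.p6, each with 250 bases before the transcription start and 50 bases after it, matched 4 of the 5 members with 5 promoters, since Cdkn1a has a pair of starts. Each stretch below lies before the start and is written 5′ to 3′ on the strand of the gene, with half-sites in capitals. In Cdkn1a the longer run of capitals is 2 adjoining half-sites with 1 mismatch in all and the shorter run a half-site without a mismatch, and in the others the capitals are 1 half-site without a mismatch, with 20 bases on either side.
Cdkn1a, upstream start, chr17:29090868-29090978, plus strand: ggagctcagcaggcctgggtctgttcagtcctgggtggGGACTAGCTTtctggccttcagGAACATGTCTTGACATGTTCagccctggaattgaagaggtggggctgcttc
Bax, chr7:45467070-45467119, minus strand: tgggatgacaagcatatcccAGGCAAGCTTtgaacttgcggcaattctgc
Mdm2, chr10:117710915-117710964, minus strand: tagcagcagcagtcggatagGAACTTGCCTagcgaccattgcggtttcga
Trp53, chr11:69580264-69580313, plus strand: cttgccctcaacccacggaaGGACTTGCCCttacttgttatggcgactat

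All 4 members with a promoter held at least 1 half-site without a mismatch in a promoter. Among 32851 promoters of the same length the share was 8.36%, which is counted by promoter and not by gene. The adjoining pair of Cdkn1a, which begins 51 bases before the start, occurred in 29 promoters, or 0.0883%. The allowance of 1 mismatch for the pair was chosen after these sequences were seen, and the further half-site of the same window begins 73 bases before the start. The second Cdkn1a start had no half-site without a mismatch. A half-site with up to 1 mismatch lay in 70% of all promoters, so that this looser match tells promoters apart poorly. A match of letters is a description of the sequence and not a measured site of binding.

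Library totals ran from 3683842 to 12793955 counts, and every SMA spinal cord library was shallower than every control spinal cord library. The 5 members together took between 0.0387% and 0.0529% of the counts of a library. Tissue labels were checked with the few markers that could be named. Of 17 listed Hox genes, which mark the spinal cord, 6 were named and summed to 1.75 to 4.46 CPM, which are counts scaled to the total of each library, in brain and to 331 to 604 in spinal cord. Control spinal cord library 1 stood apart with 416 CPM of 6 of 13 listed proliferation markers (Top2a, Kif11, Cdk1, Aurkb, Mcm2 and Mcm5), against 117 to 181 in the other spinal cord libraries. The liver and yolk sac markers Apoa2, Apoh and Apob, 3 of 11 listed, summed to 1069 CPM in SMA spinal cord library 1 and 351 in control spinal cord library 3. They stayed at or below 37.7 CPM in the others. Spinal cord values that changed without control library 1 or SMA library 1 are given with and without it. The genotype rests on the labels, since Smn1 was not analysed here.

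Levels were compared between genes as RPKM, CPM per kilobase of gene length, because a long gene collects more footprints than a short one at equal occupancy. The length is that of all exons, while footprints lie mostly on coding sequence, so that genes with long untranslated ends come out too low on this scale. Bax had the highest level in all 4 groups, followed by Trp53 and then Mdm2. In control brain the mean level was 78.0 ± 2.48 RPKM for Bax (SD, n = 3), 53.8 ± 6.23 for Trp53, 18.6 ± 1.60 for Mdm2, 8.44 ± 0.281 for Trp53inp1 and 8.14 ± 0.906 for Cdkn1a. Bax stood above 90.5% of the genes of the table there, Trp53 above 85.0% and Mdm2 above 57.4%, while Trp53inp1 at 27.4% and Cdkn1a at 26.0% lay in the lower part. In SMA spinal cord the means were 73.1 ± 8.13 RPKM for Bax, 37.6 ± 1.61 for Trp53, 13.9 ± 3.17 for Mdm2, 9.97 ± 1.27 for Cdkn1a and 6.27 ± 1.53 for Trp53inp1. The ranges of Bax and Trp53 did not overlap in any group, nor did those of Trp53 and Mdm2. Mdm2 and Cdkn1a overlapped in SMA spinal cord, where the second library had Cdkn1a above Mdm2. Cdkn1a and Trp53inp1 overlapped in every group but SMA spinal cord. Within a library, Cdkn1a was above Trp53inp1 in every spinal cord library of both genotypes, while their order varied among the brain libraries.

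**Figure D1:**
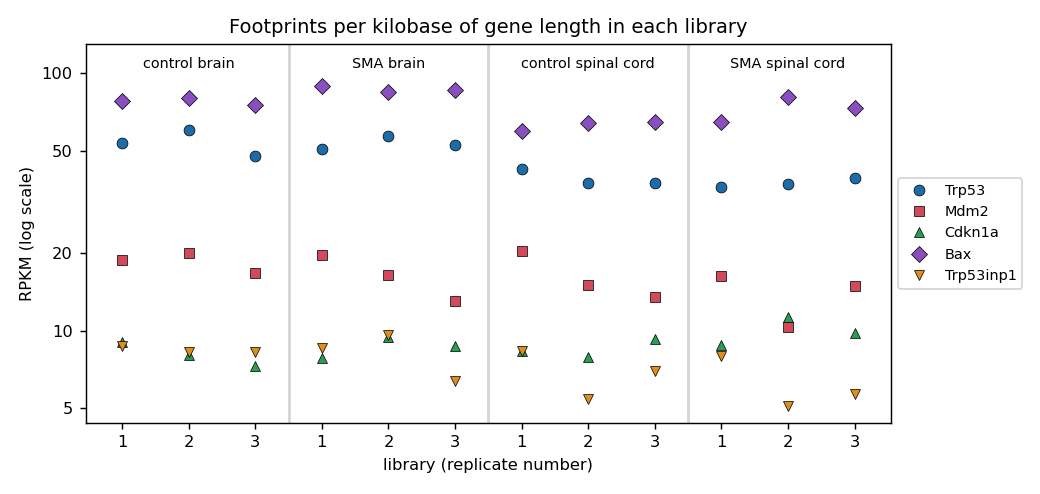
Footprint level per kilobase of gene length (RPKM, log scale) of the 5 genes in each of the 12 libraries, grouped by genotype and tissue. Bax is above Trp53 in every library, and Trp53 is above the other 3 genes throughout. Cdkn1a is above Trp53inp1 in every spinal cord library, and the order of Cdkn1a and Trp53inp1 varies among the brain libraries.

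Trp53 (chr11:69580348-69591873 on GRCm38.p6) was counted 749 to 2264 times per library. In control brain its normalized level was 217, 243 and 193 CPM in libraries 1 to 3, and in SMA brain 205, 230 and 213 CPM. Control spinal cord had 172, 152 and 152 CPM and SMA spinal cord 147, 150 and 159 CPM. The genotypes overlapped in both tissues, while all 6 brain libraries lay above all 6 spinal cord libraries. The log2 fold change of SMA over control was 0.01 in brain (95% interval -0.22 to 0.23) and -0.07 in spinal cord (-0.28 to 0.13). Both intervals stay within 0.28 on either side of 0. Trp53 has a processed pseudogene, Trp53-ps, and reads with up to 5 alignments were kept, so that the counts of Trp53 are uncertain by whatever such reads add or take away.

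Mdm2, the ligase that limits p53 and is induced by it (chr10:117688875-117710758), was counted 239 to 1372 times. Its level in control brain was 96.1, 102 and 85.6 CPM, and in SMA brain 100.3, 83.7 and 66.7 CPM. Control spinal cord had 104, 76.4 and 68.8 CPM, and SMA spinal cord 83.2, 52.4 and 76.1 CPM. SMA means were below control means in both tissues, but the groups overlapped in each. The log2 fold change was -0.16 in brain (SE 0.14, 95% interval -0.46 to 0.14) and -0.25 in spinal cord (SE 0.22, -0.76 to 0.26). The spinal cord value rested on control library 1, the library with 416 CPM of proliferation markers: without it the log2 fold change was -0.05, and without SMA library 2 it was -0.08. Without control library 3 it was -0.37. The part of that library's tissue content in its Mdm2 level was not tested. In brain, the value without SMA library 3 was -0.03 and without SMA library 1 it was -0.31, which passes a log2 fold change of 0.3 at an unadjusted p below 0.05 (adjusted p = 0.996 by edgeR).

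Cdkn1a, which encodes the cell cycle inhibitor p21 and is the classical arrest target of p53 (chr17:29090979-29100722), was counted only 102 to 393 times. Its level in control brain was 32.3, 28.6 and 25.9 CPM, and in SMA brain 27.9, 33.6 and 31.0 CPM. Control spinal cord had 29.8, 28.1 and 33.0 CPM, and SMA spinal cord 31.2, 40.2 and 34.9 CPM. The highest level of the 12 was that of SMA spinal cord library 2, but SMA library 1 lay below control library 3. The log2 fold change was 0.10 in brain (SE 0.14, 95% interval -0.20 to 0.41) and 0.21 in spinal cord (SE 0.13, -0.09 to 0.52), or 1.16-fold. Without SMA spinal cord library 2 the latter was 0.11.

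Bax, which encodes a protein that opens the outer mitochondrial membrane in apoptosis (chr7:45461695-45466903), was counted 426 to 1087 times. Its level in control brain was 108, 111 and 104 CPM, and in SMA brain 124, 117 and 119 CPM. Control spinal cord had 82.5, 88.5 and 89.8 CPM, and SMA spinal cord 89.9, 112 and 101 CPM. Every SMA library was above every control library of its tissue, in spinal cord by a margin of only 89.9 against 89.8 CPM. The groups of 1 of 5 members did not overlap in brain and of the same 1 of 5 in spinal cord, against 11.3% and 14.4% of all genes. SMA lay above control without overlap in both tissues for 102 genes, 0.973% of the table, and Bax was singled out after its values were seen. The exact permutation test gave p = 0.1 in each tissue, which is the smallest that 3 against 3 libraries allow. The log2 fold change was 0.17 in brain (1.12-fold, SE 0.093, adjusted p = 0.902 by edgeR) and 0.21 in spinal cord (1.15-fold, SE 0.10, adjusted p = 0.684 by edgeR). The 95% intervals ran from -0.04 to 0.37 and from -0.03 to 0.44. The difference in Bax did not pass the test in either tissue. Without SMA spinal cord library 2 the spinal cord value was 0.12, and after each library's trend of counts on counts per base was removed it was 0.10 in both tissues.

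Trp53inp1, which encodes a stress protein that acts in p53-dependent apoptosis and in autophagy (chr4:11156441-11174379), was counted 149 to 714 times. Its level in control brain was 56.8, 53.6 and 53.7 CPM, and in SMA brain 55.8, 62.3 and 41.6 CPM. Control spinal cord had 54.2, 35.3 and 45.4 CPM, and SMA spinal cord 51.8, 33.0 and 37.0 CPM. The groups overlapped in both tissues. The log2 fold change was -0.02 in brain (SE 0.14, 95% interval -0.33 to 0.30) and -0.15 in spinal cord (SE 0.22, -0.67 to 0.36). Without control spinal cord library 1, which again had the highest level of its group, the spinal cord value was 0.01. It was -0.38 without SMA library 1 and -0.30 without control library 2, and leaving out SMA library 2 gave -0.03 and SMA library 3 gave -0.08.

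**Figure D2:**
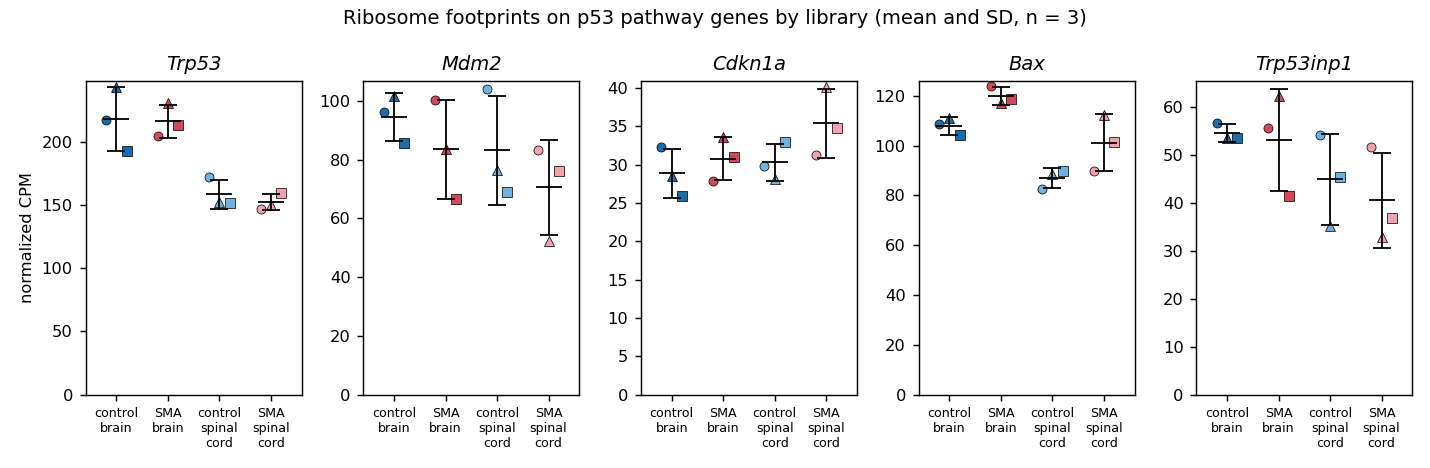
Normalized CPM of the 5 genes in each library, with a circle, triangle and square for libraries 1, 2 and 3, and black bars for the mean and SD of each group (n = 3). Trp53 is lower in all spinal cord libraries than in all brain libraries, with the genotypes overlapping, while Bax is higher in every SMA library than in the control libraries of its tissue.

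The comparison of SMA with control asked whether p53 or its targets changed in occupancy before birth. The paper names p53 signaling among the disrupted pathways in its pathway analysis, which pooled brain and spinal cord genes at a log2 fold change of 0.3. That analysis drew on all genes past its thresholds, so counts over 5 members in each tissue do not test it. By the thresholds of the study, which were a mean of at least 0.05 CPM, a log2 fold change of at least 0.5 either way and an unadjusted p below 0.05, 0 of 5 members passed in brain and 0 of 5 in spinal cord by edgeR. The background in these fits was 1.53% of all genes in brain (160 genes) and 0.983% in spinal cord (103 genes). At these thresholds the paper reports a similar number of genes in brain and a larger one in spinal cord, so the spinal cord share is not the study's own. At a log2 fold change of 0.3 the count was again 0 of 5 in each tissue, against 3.76% and 4.19%. At an unadjusted p below 0.05 alone 0 of 5 members were counted in either tissue, and by DESeq2 also 0 of 5 in each. By edgeR no gene of the table had an adjusted p below 0.05 in brain or spinal cord, with 529 genes in brain and 733 in spinal cord at an unadjusted p below 0.05, whereas DESeq2 gave 0 in brain and 84 in spinal cord. The median log2 fold change of the members was 0.01 in brain and -0.07 in spinal cord, beside 0.00 and -0.01 over all genes. The direction was mixed, with 2 of 5 members lower in brain and 3 of 5 in spinal cord. In both tissues Mdm2 and Trp53inp1 had values below 0 and Cdkn1a and Bax above 0, but Trp53inp1 in brain turned to 0.03 once the trend on counts per base was removed. In spinal cord the intervals of Mdm2 and Trp53inp1 include a log2 fold change of 0.5 downward and that of Cdkn1a 0.5 upward, so that changes of the size the study called lie within the error for these 3 genes. Without SMA spinal cord library 1, the library with 1069 CPM of liver markers, the spinal cord values were -0.39 for Mdm2, -0.38 for Trp53inp1, 0.29 for Cdkn1a and 0.28 for Bax, and again 0 of 5 members passed the thresholds.

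**Figure D3:**
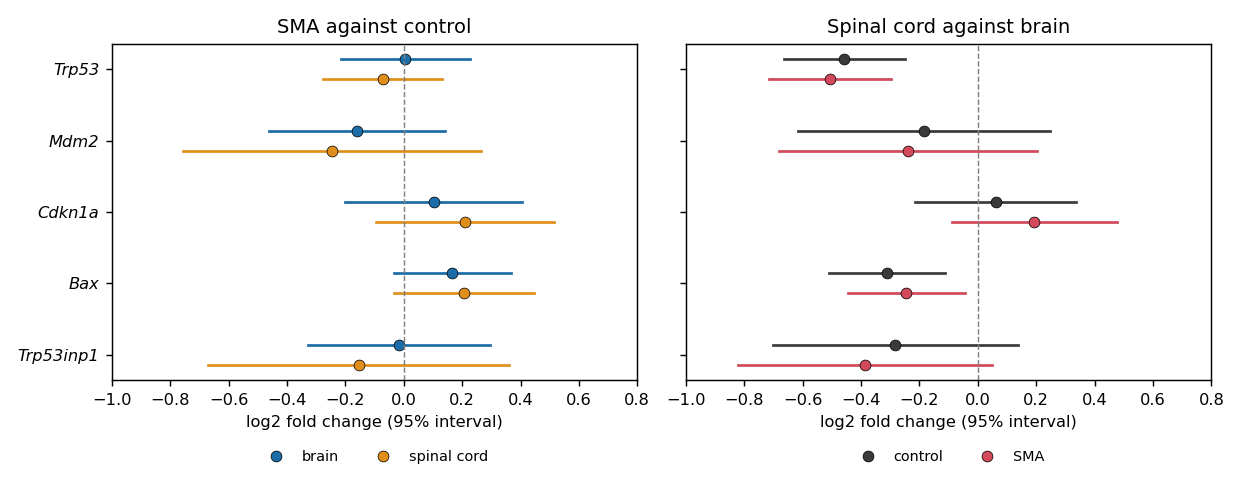
Log2 fold change of the 5 genes with 95% intervals from edgeR, for SMA against control in each tissue on the left and for spinal cord against brain in each genotype on the right. All 10 intervals on the left cross 0, and on the right those of Trp53 and Bax lie below 0 in both genotypes.

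Whether the SMA difference itself differed between tissues was tested as an interaction term in a fit of all 12 libraries. By edgeR 0 of 5 members had an unadjusted p below 0.05, against 2.38% of all genes, and 0 of 5 by DESeq2. All adjusted p-values of the members were 1. The estimates, spinal cord minus brain, ran from -0.11 for Trp53inp1 to 0.13 for Cdkn1a. For Trp53 the value was -0.05 with a 95% interval of -0.34 to 0.24, and for Bax 0.07 with -0.22 to 0.35. The widest interval was that of Mdm2, -0.67 to 0.56, followed by that of Trp53inp1, -0.71 to 0.50.

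Between tissues, Trp53 was lower in spinal cord than in brain in both genotypes. Its mean fell from 218 ± 25.2 CPM in control brain to 159 ± 11.4 in control spinal cord, and from 216 ± 13.1 in SMA brain to 152 ± 6.50 in SMA spinal cord (SD, n = 3 each). The log2 fold change was -0.46 in control (0.728-fold, SE 0.095, adjusted p = 0.00261 by edgeR) and -0.51 in SMA (0.704-fold, SE 0.096, adjusted p = 0.00147 by edgeR). Trp53 passed in all 19 alternative settings of each genotype, with values between -0.54 and -0.32 in control and between -0.54 and -0.42 in SMA. Without control spinal cord library 1 the control value was -0.52. Such differences are frequent between these tissues: 21.1% of all genes were lower and 20.1% higher in control spinal cord, and 19.3% and 21.0% in SMA. Among the members 2 of 5 were lower in control, 1 of 5 in SMA, and 0 of 5 were higher in either. The groups of 2 of 5 members, Trp53 and Bax, did not overlap between tissues in either genotype, against 54.0% of all genes in control and 51.8% in SMA.

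Bax was also lower in spinal cord. The control means of 108 ± 3.44 and 86.9 ± 3.90 CPM gave a log2 fold change of -0.31 (SE 0.091, adjusted p = 0.0167 by edgeR), and the SMA means of 120 ± 3.59 and 101 ± 11.3 CPM gave -0.24 (SE 0.092, adjusted p = 0.0516 by edgeR). This difference depended on the scaling: after removal of the per-library trend on counts per base, Bax stood at -0.09 in both genotypes and passed in neither. In control it was also lost without brain library 2 (adjusted p = 0.0547 by edgeR) and without spinal cord library 1 (adjusted p = 0.0555 by edgeR).

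Mdm2, Cdkn1a and Trp53inp1 did not pass between tissues. The log2 fold changes of Mdm2 were -0.18 in control and -0.24 in SMA, and those of Trp53inp1 were -0.28 and -0.39 (adjusted p = 0.257 and 0.138 by edgeR). Cdkn1a had 0.06 and 0.19, with 95% intervals of -0.22 to 0.34 and -0.09 to 0.48. Within a library the ratio of Cdkn1a to Trp53 counts needs no scaling between libraries. In brain it was 0.133 ± 0.015 for control and 0.142 ± 0.0054 for SMA, and in spinal cord 0.192 ± 0.023 for control and 0.233 ± 0.030 for SMA (SD, n = 3), so that all 6 spinal cord ratios (0.174 to 0.267) lay above all 6 brain ratios (0.118 to 0.148). The ratio of Bax to Trp53 was 0.499 ± 0.042 in brain and 0.551 ± 0.062 in spinal cord of control embryos, whose ranges overlapped, and 0.557 ± 0.049 and 0.665 ± 0.073 in SMA embryos. The ratio of Mdm2 to Trp53 was 0.418 to 0.444 in control brain and 0.453 to 0.606 in control spinal cord. In SMA embryos its ranges overlapped (0.313 to 0.490 in brain, 0.349 to 0.566 in spinal cord). The ratio of Trp53inp1 to Trp53 overlapped between tissues in both genotypes. All these ratios divide by Trp53, which was itself lower in spinal cord, and the share of all genes with such a separation was not computed. A ratio shows unequal change and does not say which of the genes moved.

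The tissues also differ in cell content, and in whole tissue fewer cells of a type and less RNA per cell cannot be told apart. The 6 proliferation markers summed to 584 to 705 CPM in brain and 117 to 416 in spinal cord, and the neural progenitor markers Nes and Fabp7, 2 of 9 listed, to 650 to 803 CPM in brain and 387 to 536 in spinal cord. The neuron markers Map2, Elavl3, Nefl and Nefm, 4 of 12 listed, summed to 3313 to 4094 CPM in brain and 3229 to 4389 in spinal cord. This sum hides opposite directions. In control, Nefl and Nefm were higher in spinal cord (log2 fold change 1.93 and 1.89), and Map2 and Elavl3 were lower (-0.22 and -0.36). The directions were the same in SMA. The part of all these markers in the lower Trp53 of spinal cord was not tested. Among the 9308 genes with a mean of at least 5 CPM, the genes whose log2 level over the 12 libraries was most like that of Trp53 were ENSMUSG00000047904 (r = 0.98) and ENSMUSG00000028044 (r = 0.97), which have no name in the tables used here. For Cdkn1a it was Tysnd1, a peroxisomal protease (r = 0.86). All such correlations are carried by the same libraries, and for Trp53 mainly by the difference between tissues.

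**Figure D4:**
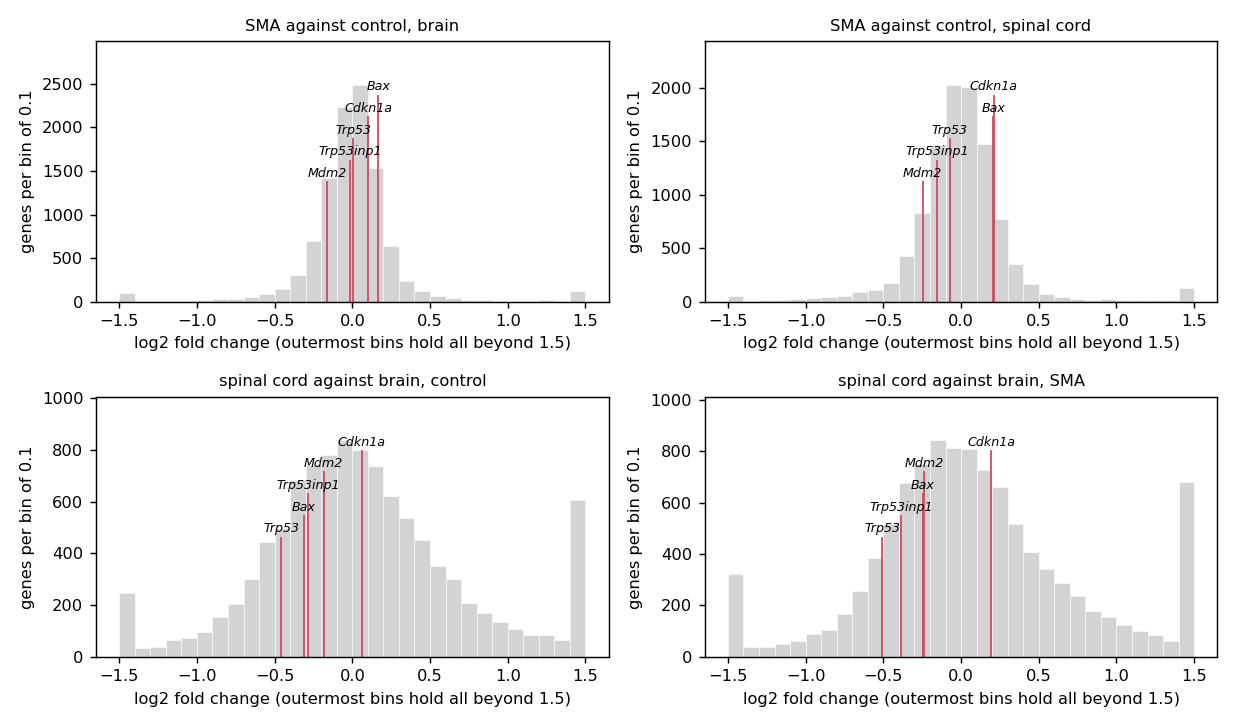
Distribution of the log2 fold change over all 10481 genes in 4 comparisons (grey bars, genes per bin of 0.1, the outermost bins holding everything beyond 1.5) with the 5 genes marked by red lines, whose height carries no value. Between genotypes the 5 genes sit in the central peak, and between tissues Trp53 lies towards the lower side, below all but 17.8% of the genes in control and 14.2% in SMA.

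The spread between libraries was not the same for all members. For Cdkn1a the coefficient of variation within a group was 8.10% to 12.8%, not far above the 5.39% to 8.94% that counting alone gives. For Mdm2 it was 8.63% to 22.8%, against 3.30% to 5.47% from counting, and for Trp53inp1 it reached 24.4% against 6.40% in SMA spinal cord. Mdm2 and Trp53inp1 varied together, with a Pearson r of 0.78 over the 12 libraries and 0.72 after the group means were taken out. Mdm2 and Cdkn1a went opposite ways (r = -0.66, or -0.49 within groups). Trp53 and Bax had r = 0.68 over all libraries and 0.02 within groups. These values describe 12 libraries of differing depth and tissue content, and counting errors cover only part of the spread.

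Of 86 other genes of the p53 pathway that were listed as regulators, arrest and growth targets, apoptosis targets and DNA repair targets, 16 could be named in the table. Between genotypes they were split in brain, with 8 lower and 8 higher, a median log2 fold change of 0.01 and 0 past a log2 fold change of 0.3 with an unadjusted p below 0.05. In spinal cord 13 were lower and 3 higher, with a median of -0.14 beside -0.01 over all genes, and by edgeR 0 of 16 passed an adjusted p of 0.05 in brain or in spinal cord. In spinal cord 1 passed 0.3 with an unadjusted p below 0.05. This was Sirt1, which encodes a deacetylase that acts on p53, with 61.6 ± 6.20 CPM in control and 50.4 ± 3.32 in SMA spinal cord (SD, n = 3) and a log2 fold change of -0.30 (adjusted p = 0.684 by edgeR). It passed in 7 of 13 alternatives and was lost without control libraries 1 or 2 and without SMA libraries 1 or 2. All 6 arrest and growth targets had values below 0 in spinal cord, with a median of -0.19, and 0 of 6 passed. Without control library 1 the count below 0 was 5 of 6 with a median of -0.09, and of the 16 it was 12 with a median of -0.11. The 6 proliferation markers were also all below 0 there, with a median of -0.54 and 0 of 6 passed. That median was -0.09 without control library 1, with 5 of 6 below 0, and the part of these markers in the values of the p53 genes was not tested.

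Between tissues, 7 of the 16 passed in control, 5 lower and 2 higher, and 10 of 16 in SMA, 7 lower and 3 higher, beside the 21.1% lower and 20.1% higher of all genes in control and the 19.3% and 21.0% in SMA. Gadd45g, a growth arrest and DNA damage gene, showed the smallest p: it fell from 50.6 ± 4.17 CPM in control brain to 15.7 ± 1.90 in control spinal cord, a log2 fold change of -1.69 (adjusted p = 2.58e-06 by edgeR), and by 1.89 on the log2 scale in SMA. Gtse1, which encodes a protein of dividing cells that binds p53, fell by 2.03 in control and by 2.41 in SMA. The anti-proliferative gene Btg2 fell by 0.83 and 0.89, and Plk2, a stress-induced kinase gene, by 0.30 in both genotypes. Bcl2l1, which encodes the survival protein Bcl-xL, fell by 0.38 in control and by 0.45 in SMA. Ppp1r13b, which encodes the p53 cofactor ASPP1, rose by 0.74 in control and by 0.56 in SMA, where it did not pass without SMA brain library 2 or SMA spinal cord library 1. Bbc3, which encodes the apoptosis protein PUMA, rose by 0.74 in SMA (adjusted p = 0.00217 by edgeR), while in control it had 0.38 (adjusted p = 0.0526 by edgeR) and its interaction was 0.36 (adjusted p = 1 by edgeR). Of the arrest and growth group, 4 of 6 were lower in spinal cord in each genotype. The fall in Gtse1 ran beside that of the proliferation markers, whose median was -1.39 in control and -2.16 in SMA. Without control spinal cord library 1 the control median was -2.23, so the gap between the genotypes in these medians rested on that library. Over the alternatives the control value of Gtse1 ranged from -2.71 to -1.74.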

How the data were processed

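Per the labels, footprints came from the brain and the spinal cord of E14.5 embryos, control or SMA. The deposited values are raw counts for each gene and library, with a gene length in bases. The authors trimmed reads with cutadapt 4.1, removed rRNA and tRNA reads, aligned the rest with STAR 2.5.3a to the mouse genome (GRCm38.p6, Gencode annotation), kept reads with up to 5 alignments, discarded reads sharing a transcript position, and kept genes past the 80th FPKM percentile filter. The counting tool, its strand setting and whether counts precede the removal of such reads are not given in the sources used here. Removing reads at the same position can compress high counts.

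The analysis used edgeR 4.0.16 under R 4.3.3 (TMM, glmQLFit, glmQLFTest, 2-sided, Benjamini-Hochberg over 10481 genes) beside DESeq2 1.42.0 and limma 3.58.1. Figures used matplotlib 3.10.9. SMA against control was fitted on the 6 libraries of a tissue, and tissues and the interaction on all 12. Printed CPM and RPKM use TMM factors over all 12 libraries. Scripts were tested on simulated data. Library totals were 3683842 to 12793955 counts, and intervals include the spread between libraries.

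Members, gene lists and tests were chosen with earlier results of these data known. From the p53 lists, genes were named that passed a comparison, at most 6 in each by smallest p. Names were at hand for 1999 of 10481 identifiers, and the RefSeq table matched 0 identifiers directly, so members were placed by symbol. Alternatives were library size alone, DESeq2, the newer quasi-likelihood fit, a mean CPM of at least 1, the replicate number as a block, removal of the per-library trend on counts per base, another choice of libraries, and each library left out. Deviations of same-numbered brain and spinal cord libraries had r = 0.37, 0.12 and 0.16 in SMA, all over the 0.1 set as the limit for pairing, though numbers 2 and 3 matched best crosswise. In control they had r = 0.14, 0.02 and 0.15, each library matching its own number best. Between genotypes some were below 0. Values of some listed genes are not reported here.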

Additional observations from a re-analysis of the deposited data

How the results depend on the processing

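In SMA against control and in the interaction, 0 of 5 members passed in every setting tried, at a log2 fold change of 0.5 with an unadjusted p below 0.05 and, for the interaction, at an adjusted p of 0.05. At 0.3, Mdm2 passed in brain without SMA library 1. The unadjusted p of Bax in spinal cord was below 0.05 with the replicate block (0.0443), with all 12 libraries (0.0339) and without SMA library 1 (0.0317), by edgeR (adjusted p 0.357, 0.534 and 0.424). Between tissues Trp53 passed in every setting, and with the replicate block it had -0.45 in control and -0.50 in SMA. That block joins control and SMA libraries of the same number, which come from different embryos, so it cannot show what pairing by embryo would do. The replicate block changed no call on the members, but it moved the genes past the thresholds in spinal cord from 103 to 207, where the numbers do not pair the libraries. All 12 libraries in that fit gave 169 genes. In brain DESeq2 gave 91 genes in place of 160. With a library left out, the genes past the thresholds ranged from 169 to 273 in brain and from 58 (without control library 1) to 388 (without SMA library 1) in spinal cord. The members called between tissues in control went from 2 to 1 once the trend on counts per base was removed, and ranged from 1 to 2 with a library left out. In SMA they went from 1 to 2 with DESeq2, a mean CPM of at least 1 and the newer quasi-likelihood fit, which added Bax, and with the trend removed, which added Trp53inp1. With a library left out they ranged from 1 to 2: without SMA spinal cord library 1 Trp53inp1 passed (adjusted p = 0.0339 by edgeR), and without library 2 Bax did (adjusted p = 0.0119 by edgeR).

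Values near 0 changed sign. For SMA against control in brain, Trp53 had -0.015 with library size alone, -0.033 with the trend removed and -0.011 with all 12 libraries, and Trp53inp1 had 0.025 with the trend removed. With the trend removed the interaction of Bax was -0.0055 and Cdkn1a between tissues in control was -0.064. With a library left out, Trp53 in brain ranged from -0.068 to 0.092, Trp53inp1 in brain from -0.15 to 0.13 and in spinal cord from -0.38 to 0.0080. The interactions then ranged from -0.13 to 0.029 for Trp53, from -0.19 to 0.14 for Mdm2, from -0.33 to 0.054 for Trp53inp1 and from -0.043 to 0.15 for Bax, and Cdkn1a between tissues in control from -0.0096 to 0.15. The causes were not tested. With a group left at 2 libraries, the spread is pooled over groups. Of the other alternatives, 378 kept direction and call.

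Depth limits Cdkn1a most, with 102 to 393 counts per library. For SMA against control in spinal cord DESeq2 gave no adjusted p for any of the 5 members.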
